A study of Mus musculus with 14 samples.

Results

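The GATA family was taken as the entries of the deposited expression table whose gene symbols were Gata2, Gata3, Gata4, Gata5 or Gata6, which gave 5 genes of 22798. GATA factors are zinc-finger transcription factors that bind DNA around the core letters GATA. Gata4, Gata5 and Gata6 are best known from heart and from endoderm, where Gata4 marks the glandular stomach and the small intestine and Gata6 is also needed for early endoderm. Gata2 and Gata3 are best known from blood and endothelium, and Gata3 also acts in T cells, in skin and in other stratified or secretory epithelia.

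RNA was sequenced from epithelial cells isolated from mouse embryonic stomachs at stage E14.5, in 14 libraries of 4 groups. The hindstomach, which becomes glandular, gave 5 libraries labelled as a conditional Gata4 knockout and 3 wild-type libraries of the same cross. The forestomach, which becomes stratified and squamous, gave 3 libraries labelled as a conditional Gata4 knock-in and 3 wild-type libraries of that other cross. The sources used here name no Cre driver, deleted exon or inserted sequence. Each region has its own cross, also for its controls, and a difference of region and one of cross cannot be told apart. The labels do not say whether libraries of a group came from separate embryos, and the p-values therefore rest on a spread between libraries that may be technical.

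Levels were deposited as FPKM (fragments per kilobase of transcript scaled to the mapped total), so they compare genes per unit length, and absolute depth was unknown. Relative depth ran from 48.4% to 100% of the deepest library, and 9248 to 12387 genes per library had at least 1 FPKM. Libraries also differed in their GC slope, the slope of centred log2(FPKM + 1) on transcript GC content over all genes kept. This slope ran from -0.600 to 0.507 log2 per 10% GC in knockout libraries, against 0.585 to 0.640 in hindstomach controls, and from -0.880 to -0.0909 in libraries labelled knock-in, against -0.639 to 0.854 in forestomach controls. Summed over 5 epithelial markers, levels were 414 to 813 FPKM in knockout libraries, against 1054 to 1279 FPKM in hindstomach controls, and 467 to 791 FPKM in libraries labelled knock-in, against 359 to 629 FPKM in forestomach controls. Of these 5, 0 passed limma at an adjusted p under 0.05 in the knockout comparison (13.2% of all genes did). With the GC slope as a covariate 0 passed again (12.3% of all genes). The log2 changes of Krt18 and Krt8 went from -3.06 and -2.25 to -0.64 and -0.51 with it. In the knock-in comparison 1 was higher (5.85% of all genes passed), and 2 with the covariate (5.67%). The sum of 9 mesenchymal markers was also above 0, at 175 to 575 FPKM in knockout libraries, against 39.3 to 123 FPKM in hindstomach controls, and at 157 to 466 FPKM in libraries labelled knock-in, against 558 to 919 FPKM in forestomach controls. In such bulk RNA, fewer cells of a type and less RNA per cell cannot be told apart.

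Gata4, the targeted gene, was the most abundant GATA transcript in hindstomach controls. In the libraries labelled knockout 1 to 5 it stood at 16.9, 19.4, 13.02, 32.1 and 59.6 FPKM, against 65.7, 61.5 and 64.9 FPKM in hindstomach controls 2, 3 and 4. All 5 libraries lay below the lowest control, but the library labelled knockout 5 lay close to it, a level that goes against its label. Because the deleted exon is not named, that level cannot settle whether the label is right. Gata4 in the forestomach stood at 0.402, 0.319 and 1.27 FPKM in libraries labelled knock-in 1, 2 and 4, against 4.50, 1.33 and 0.573 FPKM in forestomach controls 2, 3 and 5. The forestomach groups overlapped, and no library labelled knock-in held Gata4 near a hindstomach level. The Gata4 level thus goes against the knock-in label too, and without a named inserted sequence it cannot settle that label either. Every direction given below for the libraries labelled knock-in rests on that label.

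Gata4 did not pass the limma test in either mutant comparison. It stood at a log2 difference of -1.37 (SE 0.47, limma adjusted p = 0.0672) in the knockout comparison and -0.75 (SE 0.52, limma adjusted p = 0.268) in the knock-in comparison. Without the library labelled knockout 5 the knockout value was -1.68 and passed (limma adjusted p = 0.0134). Within each of the 4 groups, the libraries ran in the same order by Gata4 and by GC slope, as the plot against GC slope shows. Gata5 and Gata6 have a transcript GC content (56.9% and 56.5%) close to that of Gata4 (57.4%). Gata5 was ordered so in 2 groups and Gata6 in 0. The share of all genes ordered so is not given, and every group but the knockout holds only 3 libraries. The part of the slope in the Gata4 values was not tested apart from a fit with the slope as a covariate. In that fit the knockout change was -0.38 (limma adjusted p = 0.354) and the knock-in change turned to 0.30 (limma adjusted p = 0.560).

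**Figure D1:**
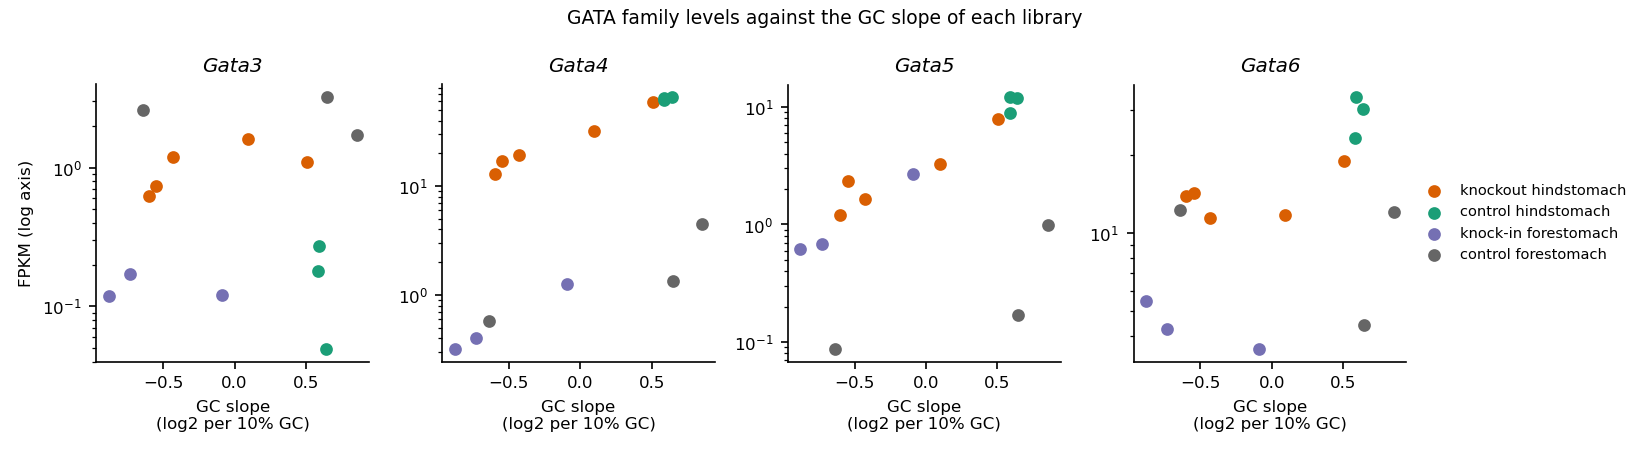
FPKM of Gata3 to Gata6 on a log axis against the GC slope of each library, in log2 per 10% GC, with 1 point per library coloured by group. Within every group Gata4 is ordered as the slope is, whereas Gata3 is ordered so in 0 of the 4 groups, Gata5 in 2 and Gata6 in 0.

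Gata3 ran opposite to Gata4 between control regions and changed in both mutant groups. In the libraries labelled knockout 1 to 5 Gata3 stood at 0.739, 1.19, 0.619, 1.61 and 1.09 FPKM, against 0.0492, 0.179 and 0.271 FPKM in hindstomach controls 2, 3 and 4. Forestomach levels were 0.170, 0.119 and 0.121 FPKM in libraries labelled knock-in 1, 2 and 4, against 1.70, 3.22 and 2.61 FPKM in forestomach controls 2, 3 and 5. Neither mutant group overlapped its control, and the library labelled knockout 5 lay among the other knockout libraries for this gene, unlike for Gata4. Lack of overlap between groups is a description throughout, and its share over all genes is not given.

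By group means Gata3 was 6.29-fold higher in knockout than in control hindstomach (1.05 ± 0.39 against 0.167 ± 0.112 FPKM, SD, n = 5 and 3). It was 18.3-fold lower in forestomach labelled knock-in than in control forestomach (0.137 ± 0.029 against 2.51 ± 0.76 FPKM, SD, n = 3 each). On the log2(FPKM + 1) scale, which understates changes of low genes, Gata3 rose by 0.80 in the knockout (SE 0.18, limma adjusted p = 0.0183) and fell by 1.60 in the libraries labelled knock-in (SE 0.21, limma adjusted p = 0.00169). Its transcript GC content, 49.7%, was near the median of the genes kept (49.8%), and with the GC slope as a covariate the changes were 0.84 (limma adjusted p = 0.0249) and -1.55 (limma adjusted p = 0.00332).

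The knockout call of Gata3 held without the library labelled knockout 5 (0.78, limma adjusted p = 0.0169). It was lost without hindstomach control 2 (0.72, limma adjusted p = 0.103) or control 4 (0.86, limma adjusted p = 0.0779), and a fit of the forestomach groups alone gave the same knock-in change with an adjusted p of 0.213. Levels of 5 squamous markers, summed, were 34.2 to 76.7 FPKM in knockout libraries, against 16.9 to 23.7 FPKM in hindstomach controls. They were 58.0 to 228 FPKM in libraries labelled knock-in, against 208 to 1746 FPKM in forestomach controls. By group means most of that control sum was Krt15 (874 ± 667 FPKM) and Krt5 (235 ± 188 FPKM), which varied widely between the controls. Of these 5 markers 2, Trp63 and Bnc1, rose in the knockout (3 with the GC slope covariate), where 13.2% of all genes were called. In the libraries labelled knock-in 4 fell (1 with the covariate), where 5.85% were called. The marker not called there was Trp63, at 49.1 ± 4.7 FPKM, against 54.5 ± 16.7 FPKM in forestomach controls (-0.10, limma adjusted p = 0.897). Of the 9 mesenchymal markers, whose sums are given above, 6 rose in the knockout (3 with the covariate) and 1 fell in the libraries labelled knock-in (0 with the covariate). No squamous marker was at 0 in all libraries of a group, and the part of these cells in the Gata3 values was not tested.

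**Figure D2:**
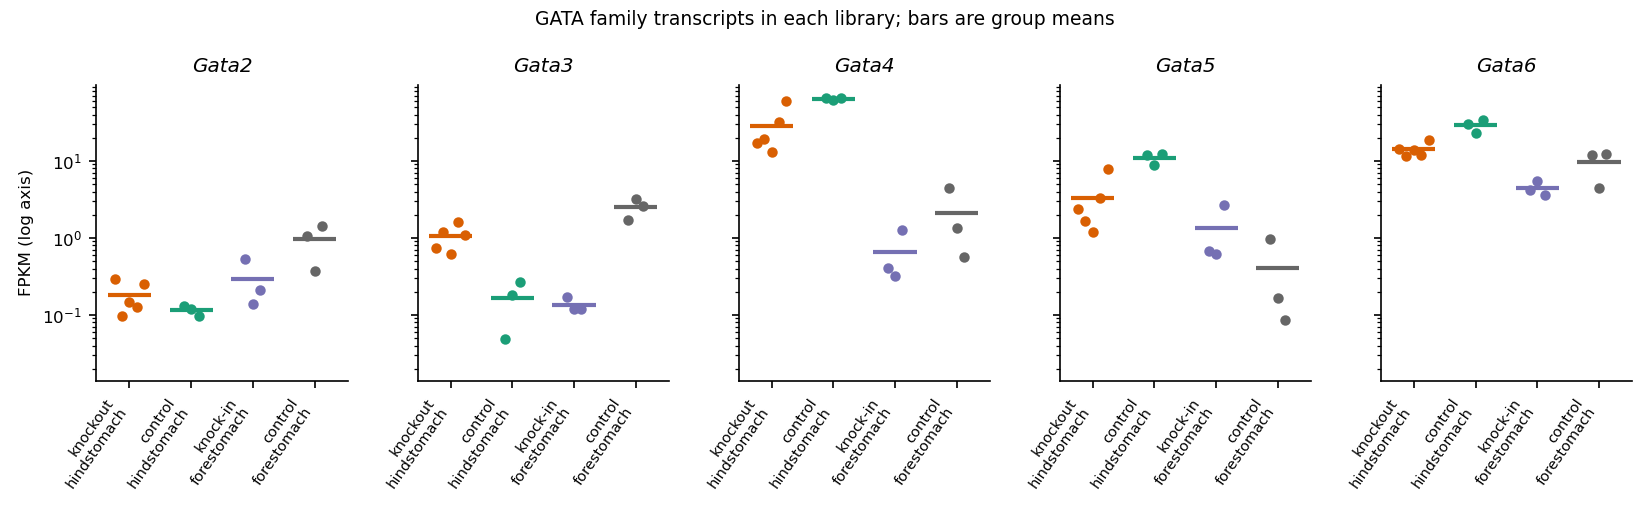
FPKM of each GATA gene on a log axis in knockout hindstomach (n = 5), control hindstomach (n = 3), forestomach labelled knock-in (n = 3) and control forestomach (n = 3), with 1 point per library and a bar at each group mean. For Gata3 the libraries labelled knockout lie above and those labelled knock-in below their controls without overlap.

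The promoters of Gata3 and Gata5, which moved in opposite directions between regions, were read from RefSeq as the 250 bases before each start site, to show what lies there. Capitals would mark a GATA motif, searched on both strands in 4 spellings (AGATAA as the first, TGATAA as the second, AGATAG as the next and TGATAG as the last), and neither run held one. Of the 5 genes, 3 had a promoter in the RefSeq table. The Gata3 run lies at chr2:9878601-9878850 and the Gata5 run at chr2:180334680-180334929, both on the minus strand of GRCm38.p6, and each is 70% GC.
Gata3: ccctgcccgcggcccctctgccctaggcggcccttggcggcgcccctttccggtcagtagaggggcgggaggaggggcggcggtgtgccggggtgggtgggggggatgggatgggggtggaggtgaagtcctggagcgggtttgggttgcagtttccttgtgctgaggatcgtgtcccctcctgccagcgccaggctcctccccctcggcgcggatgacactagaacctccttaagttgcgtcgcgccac
Gata5: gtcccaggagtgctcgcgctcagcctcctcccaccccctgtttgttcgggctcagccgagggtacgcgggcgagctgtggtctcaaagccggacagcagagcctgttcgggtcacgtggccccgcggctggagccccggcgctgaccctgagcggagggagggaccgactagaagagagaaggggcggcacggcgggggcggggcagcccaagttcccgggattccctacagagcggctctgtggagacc
A single motif lay just after the Gata3 start site, 37 bases into the transcript, at chr2:9878551-9878576 on the minus strand, shown here with TGATAG in capitals.
Gata3 site: ctggcgccgtctTGATAGtttcagaa
Of all 32851 RefSeq promoters 26.5% held such a motif in their 250 upstream bases and 29.8% in the 300 bases that also take in 50 after the start. A match or its absence is a description of these letters and says nothing of binding.

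Gata5 was lower in knockout than in control hindstomach, and it exceeded Gata4 in the libraries labelled knock-in and in no other library. In the libraries labelled knockout 1 to 5 Gata5 stood at 2.36, 1.65, 1.20, 3.26 and 7.93 FPKM, against 12.1, 8.93 and 12.2 FPKM in hindstomach controls 2, 3 and 4. Its forestomach levels were 0.678, 0.618 and 2.70 FPKM in libraries labelled knock-in 1, 2 and 4, against 0.982, 0.168 and 0.0868 FPKM in forestomach controls 2, 3 and 5. The hindstomach groups did not overlap, whereas forestomach control 2 lay above a pair of the libraries labelled knock-in.

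Gata5 fell by 1.67 in the knockout on the log2 scale (SE 0.43, limma adjusted p = 0.0269), and the call was lost with the GC slope covariate (-0.89, limma adjusted p = 0.0840). It was also lost when hindstomach control 2 or 4 or the library labelled knockout 1, 2 or 3 was left out, and without the one labelled knockout 5 it held (-1.98, limma adjusted p = 0.00345). The lost calls had changes of -1.63 to -1.48 and limma adjusted p values of 0.0585 to 0.134. For the libraries labelled knock-in the change was 0.67 (SE 0.48, limma adjusted p = 0.285), and with the covariate it was 1.50 and passed (limma adjusted p = 0.0294). The deposited table also lists Gata5os, an antisense transcript at this locus, at 0 to 0.240 FPKM, and the sources used here do not say whether counting used strand.

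Within a library the ratio of Gata5 to Gata4 does not depend on the scaling factor of that library. It was 1.69, 1.94 and 2.12 in the libraries labelled knock-in 1, 2 and 4, against 0.218, 0.126 and 0.151 in forestomach controls 2, 3 and 5. In knockout hindstomach it was 0.0851 to 0.140, against 0.145 to 0.188 in control hindstomach. Gata5 thus exceeded Gata4 in 3 of the 14 libraries, those labelled knock-in, and in the other 11 the ratio was at most 0.218. The transcripts have similar GC contents (56.9% for Gata5 and 57.4% for Gata4) and lengths (3277 and 3400 bases). The ratio is given as a description with no test, and both levels in the forestomach are low.

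**Figure D3:**
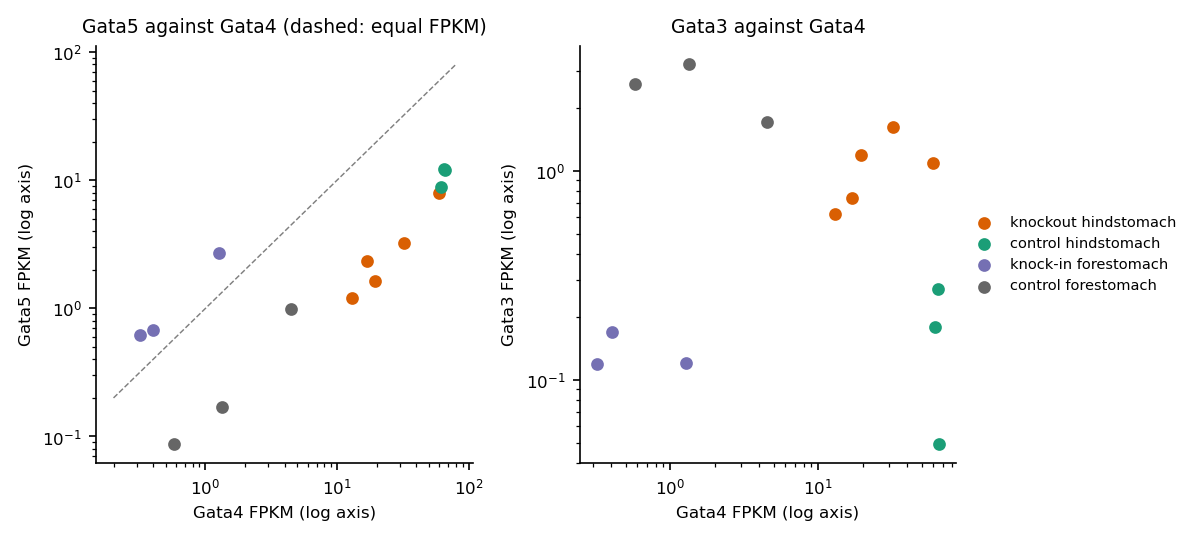
Gata5 FPKM (left) and Gata3 FPKM (right) against Gata4 FPKM on log axes, with 1 point per library coloured by group and a dashed line of equal Gata5 and Gata4. The 3 libraries labelled knock-in lie above the line, at ratios of 1.69 to 2.12, and the other 11 libraries lie below it.

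Gata6, also an endodermal member, was present in every library, at 3.56 to 33.6 FPKM. In the libraries labelled knockout 1 to 5 it stood at 14.3, 11.4, 13.9, 11.8 and 19.0 FPKM, against 30.3, 23.3 and 33.6 FPKM in hindstomach controls 2, 3 and 4. Forestomach levels of Gata6 were 4.25, 5.44 and 3.56 FPKM in libraries labelled knock-in 1, 2 and 4, against 12.1, 4.41 and 12.3 FPKM in forestomach controls 2, 3 and 5. The hindstomach groups did not overlap, and the library labelled knockout 5 stayed below every control, whereas forestomach control 3 lay among the libraries labelled knock-in.

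Gata6 fell by 1.0 in the knockout (SE 0.28, limma adjusted p = 0.0381), and with the GC slope covariate it fell by 1.12 (limma adjusted p = 0.0412). The call was lost when any hindstomach library other than the one labelled knockout 5 was left out, with changes of -1.15 to -0.89 and limma adjusted p values of 0.0527 to 0.174, and it was also lost after rescaling to a common sum (-0.75) or quantile normalization (-0.86). Without the library labelled knockout 5 it was -1.11 (limma adjusted p = 0.0184). Gata6 in the forestomach differed by -0.87 between libraries labelled knock-in and controls (SE 0.32, limma adjusted p = 0.0959), which passed without forestomach control 3 (-1.30, limma adjusted p = 0.0183).

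Gata2 did not pass the filter on low values, at least 1 FPKM in at least 3 libraries. It stood at 0.290, 0.0980, 0.147, 0.126 and 0.252 FPKM in libraries labelled knockout 1 to 5, against 0.130, 0.119 and 0.0960 FPKM in hindstomach controls 2, 3 and 4. Its forestomach values were 0.539, 0.138 and 0.210 FPKM in libraries labelled knock-in 1, 2 and 4, against 1.06, 0.368 and 1.45 FPKM in forestomach controls 2, 3 and 5. The highest levels were those of forestomach controls 2 and 5, and each mutant group overlapped its control.

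In a fit of 19487 genes without the filter, where 8.86% of genes were called in the knockout comparison and 3.52% in the knock-in comparison, Gata2 differed by 0.08 (limma adjusted p = 0.760) and -0.57 (limma adjusted p = 0.0830). It was lower in control hindstomach than in control forestomach by a log2 difference of -0.77 (limma adjusted p = 0.0109, with 16.3% of genes called), and lower in knockout hindstomach than in control forestomach by -0.69 (limma adjusted p = 0.0173, with 10.8% called). The summed FPKM of 9 endothelial markers, cells in which Gata2 is known to act, was 8.19 to 47.1 in knockout hindstomach, 13.9 to 19.7 in control hindstomach, 4.59 to 13.3 in forestomach labelled knock-in and 19.6 to 48.5 in control forestomach. The hindstomach sums join markers that went in opposite directions. Egfl7 stood at 2.39 ± 1.95 FPKM in knockout, against 9.74 ± 1.22 FPKM in control hindstomach, and Esam was also lower by mean. Emcn stood at 4.64 ± 4.31, against 0.767 ± 0.623 FPKM, and Pecam1, Cdh5, Kdr and Tek were also higher by mean. Of the 7 markers tested there 0 were called, where 13.2% of all genes were. The part of endothelial cells in the Gata2 values was not tested.

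Between control regions all 4 genes that passed the filter were called, against 20.3% of the 12694 genes tested. Gata4 was 30.0-fold higher in hindstomach by group means (64.0 ± 2.2 against 2.13 ± 2.08 FPKM, SD, n = 3 each), with a log2 change of 4.58 (SE 0.52, limma adjusted p = 8.41e-05). Gata5 was 26.8-fold higher (11.1 ± 1.8 against 0.412 ± 0.495 FPKM), with a log2 change of 3.14 (SE 0.48, limma adjusted p = 0.000642). Gata6 was 3.02-fold higher (29.1 ± 5.2 against 9.61 ± 4.50 FPKM), with a log2 change of 1.60 (SE 0.32, limma adjusted p = 0.00335).

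Gata3 alone of these 4 was lower in hindstomach, 15.1-fold by group means (0.167 ± 0.112 against 2.51 ± 0.76 FPKM, SD, n = 3 each), with a log2 change of -1.57 (SE 0.21, limma adjusted p = 0.000225). With the GC slope covariate, where 42% of genes were called, the changes were 4.19 for Gata4, 2.83 for Gata5, 1.65 for Gata6 and -1.59 for Gata3, and all 4 passed.

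Set against control forestomach, knockout hindstomach held higher Gata4 and Gata5. Gata4 was higher by 3.21 (SE 0.47, limma adjusted p = 0.00102) and Gata5 by 1.46 (SE 0.43, limma adjusted p = 0.0405), Gata3 was lower by a log2 change of -0.77 (SE 0.18, limma adjusted p = 0.0158), and Gata6 differed by 0.60 (SE 0.28, limma adjusted p = 0.184). This comparison called 13.9% of genes, and 36.3% with the GC slope covariate, under which Gata4 (3.81), Gata5 (1.93) and Gata3 (-0.75) passed. The Gata3 call was lost without forestomach control 3 (-0.63, limma adjusted p = 0.0721), and the Gata5 call without any forestomach control or without the library labelled knockout 1 or 4 (1.30 to 1.74, limma adjusted p of 0.0579 to 0.122).

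In the mutant comparisons 3 of the 4 genes tested were called in the knockout, where 13.2% of all genes were called, and 1 of 4 in the libraries labelled knock-in, where 5.85% were. With the GC slope covariate 2 of 4 were called in each, 1 higher and 1 lower, where 12.3% and 5.67% of all genes were called. The median log2 change over all genes was -0.08 in the knockout comparison and -0.37 in the knock-in comparison. Knockout hindstomach shares its controls with the regional comparison, and control forestomach is shared by 3 of the 4 comparisons.

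**Figure D4:**
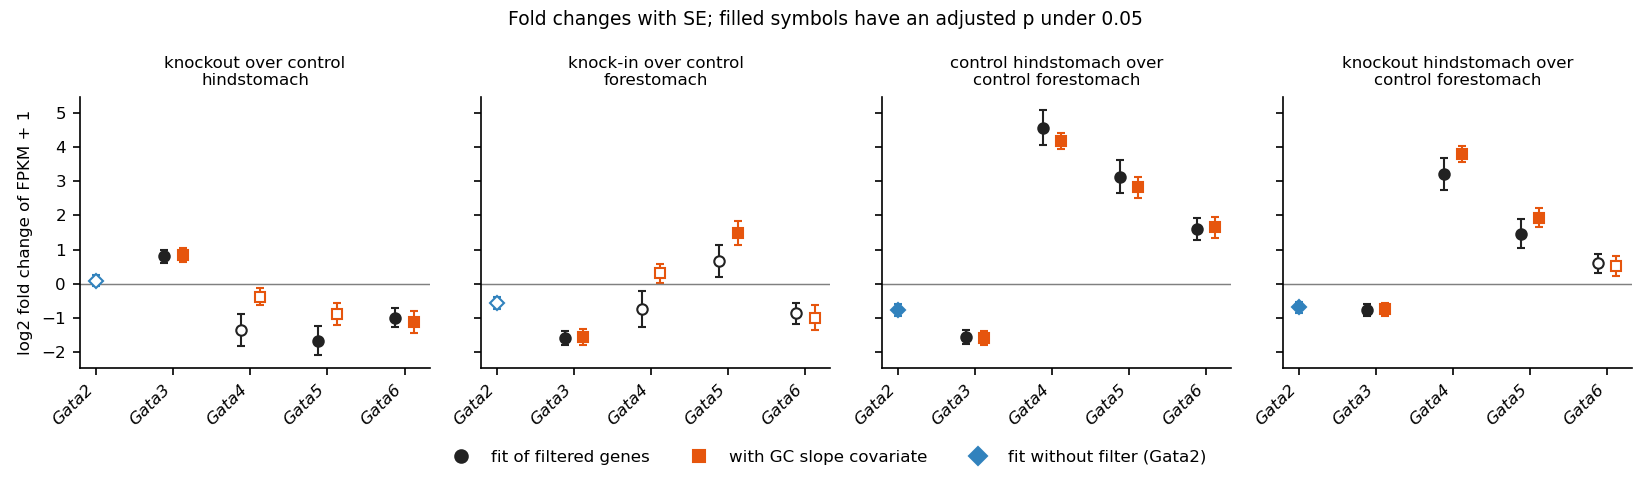
Log2 fold change of FPKM + 1 with its SE for each GATA gene in the 4 comparisons, from the fit of filtered genes (circles), the fit with the GC slope covariate (squares) and, for Gata2, the fit without a filter (diamonds), with filled symbols for an adjusted p under 0.05. Gata3 lies on the other side of 0 from Gata4, Gata5 and Gata6 in the knockout and regional panels, and its values move least between the first 2 fits.

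By mean level the groups ran in the same order for Gata4 and Gata6, from control hindstomach through knockout hindstomach and control forestomach to forestomach labelled knock-in. For Gata4 the last pair alone overlapped, and for Gata6 knockout hindstomach also overlapped control forestomach. For Gata5 the forestomach labelled knock-in stood below knockout hindstomach and above control forestomach and overlapped both of its neighbours. For Gata3 the order was control forestomach, knockout hindstomach, control hindstomach and forestomach labelled knock-in, and the last pair alone overlapped. For Gata2 the order was control forestomach, forestomach labelled knock-in, knockout hindstomach and control hindstomach, and all neighbours overlapped.

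The makeup of the family differed by region. Gata4 held 57.0% ± 10.04 of the summed FPKM of the 5 genes in knockout hindstomach and 61.5% ± 3.6 in control hindstomach (SD, n = 5 and 3), but 9.21% ± 6.10 in forestomach labelled knock-in and 13.2% ± 9.4 in control forestomach (SD, n = 3 each). Gata6 was the leading member in the forestomach, with 65.9% ± 18.7 in libraries labelled knock-in and 59.4% ± 12.9 in controls, and held 33.8% ± 11.3 in knockout and 27.7% ± 2.8 in control hindstomach. The sum itself was 46.8 ± 24.1 FPKM in knockout hindstomach, against 104 ± 9 FPKM in control hindstomach, and 6.84 ± 0.93 FPKM in forestomach labelled knock-in, against 15.6 ± 5.5 FPKM in control forestomach. The Gata4 shares of knockout and control hindstomach thus differed by less than the SD among knockout libraries, while the sum differed between them. Among knockout libraries the Gata4 share ran in the order of GC slope, from 44.98% at a slope of -0.600 to 67.9% at 0.507. It was ordered so in both forestomach groups too, but not in control hindstomach. The part of the slope in the shares and in that SD was not tested, so an unchanged makeup is not drawn from them.

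Gata3 held 2.05% ± 0.68 of the sum in forestomach labelled knock-in and 19.2% ± 13.2 in control forestomach, and the lowest control share, 8.39%, lay above the highest share in the libraries labelled knock-in, 2.82%. Gata5 held 18.3% ± 13.9 in libraries labelled knock-in and 2.37% ± 2.22 in control forestomach, again without overlap. All shares of the summed FPKM are descriptions with no test. The part of mesenchymal cells, whose marker sums are given above, in the shares of Gata6 and the other members was not tested.

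**Figure D5:**
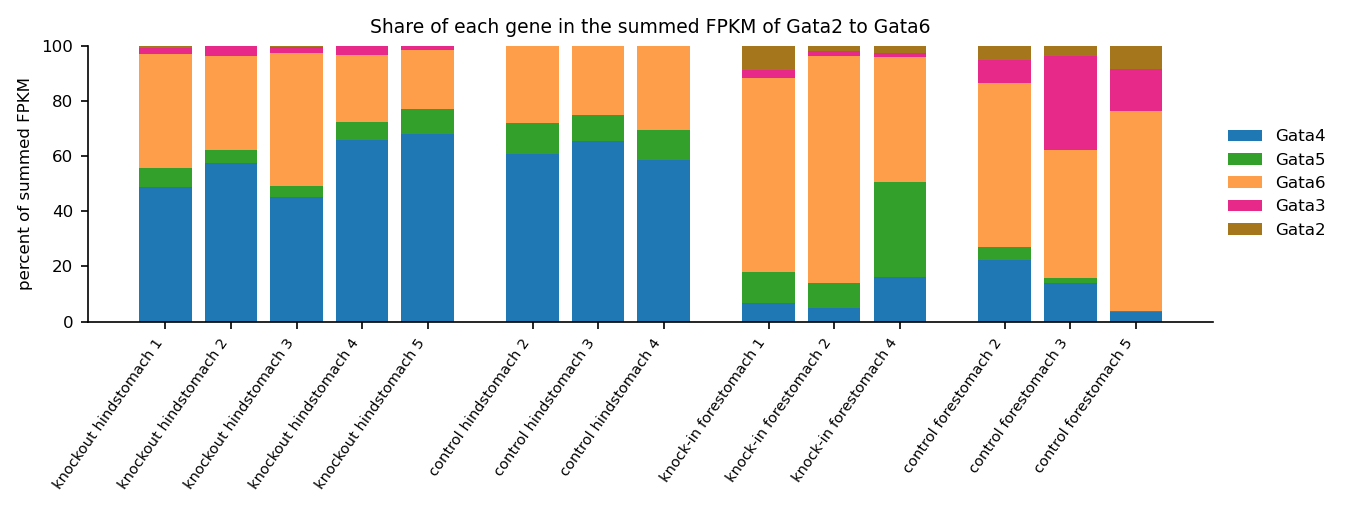
Share of Gata4, Gata5, Gata6, Gata3 and Gata2 in their summed FPKM, in percent, as 1 stacked bar per library, in the order knockout hindstomach, control hindstomach, forestomach labelled knock-in and control forestomach. Gata4 is the largest part in 7 of the 8 hindstomach bars and Gata6 in the 6 forestomach bars.

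Of 21 cofactors and other GATA-type zinc-finger genes 16 passed the filter. In the knockout comparison 2 rose and 1 fell, a share near the 13.2% of all genes called there, and 1 rose and 1 fell with the GC slope covariate (12.3% of all genes). The median log2 change was -0.25 against -0.08 over all genes. The gene that fell was Zfpm1, which encodes FOG1, a zinc-finger partner of GATA factors, and it passed the filter only through control hindstomach, so its direction follows from the filter. Zfpm1 stood at 0.0132, 0.0267, 0.0468, 0.272 and 1.18 FPKM in the libraries labelled knockout 1 to 5, against 3.16, 3.35 and 3.94 FPKM in hindstomach controls 2, 3 and 4. For that reason Zfpm1 is given as values alone.

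The genes that rose were Trps1, an atypical GATA-type zinc-finger repressor, by 1.65 (SE 0.31, limma adjusted p = 0.00751), and Ldb2, a LIM-domain-binding adaptor, by 1.47 (SE 0.34, limma adjusted p = 0.0183). With the covariate Trps1 was at 1.31 (limma adjusted p = 0.0209) and Ldb2 at 1.23 (limma adjusted p = 0.0516). Of the 9 mesenchymal markers 6 rose in the same comparison (3 with the covariate), where 13.2% of all genes were called. The part of mesenchymal cells in the Trps1 and Ldb2 values was not tested. In libraries labelled knock-in 0 of the 16 were called by limma, with or without the covariate, with a median change of -0.50 against -0.37 over all genes. The most abundant, Lmo4, a LIM-only adaptor, stood at 106 ± 12 FPKM in libraries labelled knock-in, against 114 ± 21 FPKM in forestomach controls, and Mta2, a subunit of the NuRD repressor complex, at 27.8 ± 11.2, against 47.0 ± 17.7 FPKM.

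Between control regions 2 of 16 cofactors were higher and 5 lower in hindstomach, where 20.3% of all genes were called, and 4 were higher and 5 lower with the GC slope covariate, where 42% were. Zfpm1, counted among the higher genes, stood at 3.49 ± 0.41 FPKM in control hindstomach, against 0.273 ± 0.377 FPKM in control forestomach. Here too its direction follows from the filter. Its paralog Zfpm2, which encodes FOG2, a known partner of GATA4 in heart, was lower in hindstomach, by a log2 change of -1.74 (limma adjusted p = 0.000809). Ldb2 (-2.38) and Lmo2 (-2.04), adaptors of GATA complexes in blood and endothelium, were lower too. Of the 9 mesenchymal markers 6 were also lower in control hindstomach (9 with the covariate). The part of mesenchymal cells in the Zfpm2, Ldb2 and Lmo2 values was not tested. In knockout hindstomach against control forestomach 2 of 16 were lower, Zfpm2 (-0.98, limma adjusted p = 0.0211) and Lmo4 (-0.51, limma adjusted p = 0.0278), a share near the 13.9% of all genes called. With the covariate 4 were higher and 3 lower, where 36.3% of all genes were called. Zfpm1 stood at 0.307 ± 0.498 FPKM in knockout hindstomach, against 0.273 ± 0.377 FPKM in control forestomach (log2 change 0.01, SE 0.25).

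Genes named in the literature as GATA4, GATA5 or GATA6 targets in gut or foregut endoderm made a second list, of which 10 of 19 passed the filter. Of these 10, 5 (Atp4b, Tff1, Tff2, Apoa1 and Pdx1) passed the filter only through control hindstomach, where they are high, so their direction between hindstomach controls and other groups follows from the filter and they are given as values alone. Hnf4a and Lgr5, which passed it in other groups too, fell in the knockout, Dab2 rose, and Bmp4 was not called. Atp4b, a subunit of the acid pump of parietal cells, stood at 0, 0.0754, 0, 0 and 0.0755 FPKM in the libraries labelled knockout 1 to 5, against 33.5, 24.3 and 66.8 FPKM in hindstomach controls 2, 3 and 4. The library labelled knockout 5, whose Gata4 was near the control level, was as low in Atp4b as the other knockout libraries. Given how Atp4b passed the filter, nothing is drawn from that about this library. The trefoil peptide Tff1 stood at 0.545 ± 0.667 FPKM in knockout hindstomach, against 22.3 ± 11.6 FPKM in control hindstomach (SD, n = 5 and 3). In the same groups the trefoil peptide Tff2 stood at 0.131 ± 0.201, against 8.82 ± 3.82 FPKM. The apolipoprotein Apoa1 stood at 0.935 ± 1.33, against 36.1 ± 14.9 FPKM. Dab2, an endocytic adaptor named after its values were seen, rose by 1.79 (limma adjusted p = 0.0218, and 0.0780 with the GC slope covariate). The part of mesenchymal cells, whose markers are described above, in the Dab2 values was not tested.

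Hnf4a, an endodermal transcription factor, stood at 4.93, 5.84, 3.74, 6.89 and 13.2 FPKM in the libraries labelled knockout 1 to 5, against 20.8, 18.6 and 24.0 FPKM in hindstomach controls 2, 3 and 4. It fell without overlap, by 1.58 (limma adjusted p = 0.00757), and it was highest of the knockout libraries in the one labelled knockout 5. With the GC slope covariate it fell by 1.13 (limma adjusted p = 0.0170).

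Lgr5, a receptor of R-spondins that marks stem cells of the stomach and gut, was the listed target that rose in the libraries labelled knock-in. Its FPKM was 11.4, 9.85 and 13.4 in libraries labelled knock-in 1, 2 and 4, against 0.188, 0.0996 and 0.323 FPKM in forestomach controls 2, 3 and 5, a log2 change of 3.38 (SE 0.21, limma adjusted p = 6.83e-06). Control hindstomach held 8.65 ± 1.80 FPKM of it (SD, n = 3) and knockout hindstomach 4.09 ± 0.79 (n = 5), so the libraries labelled knock-in reached the control hindstomach range for Lgr5 but not for Gata4.

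Bmp4, a signalling ligand, fell in the libraries labelled knock-in by 1.78 (4.69 ± 0.96 against 19.1 ± 7.2 FPKM, limma adjusted p = 0.00510). Hnf4a did not pass, at 0.651 ± 0.451 FPKM in libraries labelled knock-in, against 0.0267 ± 0.0319 FPKM in forestomach controls (0.65, limma adjusted p = 0.161), and it passed with the covariate (1.13, limma adjusted p = 0.0385).

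Between control regions Hnf4a (4.43) and Lgr5 (2.99) were higher in hindstomach, and Bmp4 (-2.87) and Dab2 (-2.78) were lower. Of the 9 mesenchymal markers 6 were lower there too, where 20.3% of all genes were called. The part of mesenchymal cells in the Bmp4 and Dab2 values was not tested. Atp4b was listed at 0 in every forestomach control. In knockout hindstomach against control forestomach Hnf4a (2.84) and Lgr5 (2.07) were higher and Bmp4 was lower (-2.32).

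The genes whose profiles lay nearest to each GATA gene were found by the root mean square difference of centred log2(FPKM + 1) over the 14 libraries, a description with no test, and the libraries share depth and GC slope. Nearest to Gata4 were Agr2, a disulfide isomerase of mucous cells (0.63), the Wnt receptor Fzd5 (0.71) and the DnaJ-family gene Dnajc22 (0.73), where the Gata4 profile itself has a root mean square of 2.19. Nearest to Gata5 were the anion transporter Slc26a9 (0.31), the sialyltransferase St6galnac2 (0.34) and the inositol kinase Itpka (0.34), against 1.21 for Gata5 itself. Nearest to Gata6 were the cyclic GMP-dependent kinase Prkg2 (0.34), the elongation factor Ell2 (0.35) and Nostrin, an adaptor of nitric oxide synthase (0.37), against 0.91.

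Nearest to Gata3 were the ubiquitin protease Usp13 (0.25), the transcription factor Dmrt2 (0.28) and the adrenergic receptor Adrb3 (0.32), against 0.65 for Gata3 itself. Dmrt2 stood at 1.11 ± 0.30 FPKM in knockout hindstomach, 0.415 ± 0.039 in control hindstomach, 0.207 ± 0.119 in forestomach labelled knock-in and 3.14 ± 0.72 in control forestomach (SD). Its group means had the order of Gata3, whereas those of Usp13 and Adrb3 were higher in forestomach labelled knock-in (1.26 and 0.171 FPKM) than in control hindstomach (1.15 and 0.127 FPKM). For Gata2, whose own profile has a root mean square of 0.35, the nearest were Dcaf12l2, Kdelr2 and Polr3gl (0.12 to 0.14).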

How the data were processed

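RNA-seq was run on 14 libraries. Per the labels' protocols, the library kit was NEBNext Ultra II Directional. Deposited by the authors was a single FPKM table, with a column for each library. The build is mm9 per the submitters' processing notes. The sources used here name no aligner, FPKM program or annotation. Of 22906 entries 108 exact duplicates were dropped. The 12694 genes that reached 1 FPKM in 3 or more libraries were tested as log2(FPKM + 1) with limma 3.58.1 in R 4.3.3 (eBayes with trend and robust), with 1 mean per group over all libraries. A call required an adjusted p (Benjamini-Hochberg) under 0.05. The fit was tested on simulated data. Transcript GC came from a GRCm38 annotation (matched for 99.3% of genes kept). Relative depth was read from ratios of FPKM values under 0.1. Named genes were the 5 members, up to 4 called genes per list and comparison (smallest adjusted p first; the 2 most abundant where none was called), and the 3 nearest profiles per member. Dab2 was added after its values were seen. A listed gene is not reported here. Members and lists were chosen with earlier results of these data known. Alternatives were another pseudocount (0.1), other filters, other scalings, the compared groups alone, eBayes without options, the GC slope covariate, a replicate block and leaving out each library.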

Additional observations from a re-analysis of the deposited data

How the results depend on the processing

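Of 248 alternative values of the fold changes, 206 kept their direction and their side of the threshold, 35 no longer passed, 6 newly passed and 1 reversed, Gata4 in the knock-in comparison with the GC slope covariate (0.30). In the knockout comparison Gata4 newly passed after quantile normalization (-1.23), with the compared groups alone (-1.37) and with a replicate block (-1.62). Gata5 no longer passed with a pseudocount of 0.1 (-2.02) or the covariate (-0.89), nor Gata6 after quantile normalization (-0.86) or rescaling (-0.75). Leaving out libraries gave 0.70 to 0.88 for Gata3, -1.68 to -1.15 for Gata4, -1.98 to -1.48 for Gata5 and -1.15 to -0.89 for Gata6. In the knock-in comparison Gata3 no longer passed with the compared groups alone (-1.60), Gata5 newly passed with the covariate (1.50), and Gata6 ranged from -1.30 to -0.65 over left-out libraries. Between control regions Gata6 no longer passed with the compared groups alone (1.60). In knockout hindstomach against control forestomach Gata3 no longer passed with a pseudocount of 0.1 (-1.21), quantile normalization (-0.62), rescaling (-0.80), the compared groups alone (-0.77) or a replicate block (-0.83), and ranged from -0.95 to -0.63 over left-out libraries. There Gata4 no longer passed with the block (3.25, SE 0.77, against 3.21, SE 0.47, in the fit over all libraries). Gata5 no longer passed without the filter (1.46), with the compared groups alone (1.46) or with the block (1.46). It ranged from 1.15 to 1.74 over left-out libraries. In this comparison the block joins libraries of different crosses by number alone, so calls lost with it cannot be read as an effect of pairing. The causes were not tested.

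Counts of called genes moved in the same way. In the knockout comparison 1680 genes became 4991 with the compared groups alone, 5427 with the block and 267 to 4124 over left-out libraries. In the knock-in comparison 742 became 489 after quantile normalization, 118 to 7015 over left-out libraries (7015 without forestomach control 5) and 0 by limma with the compared groups alone, where 1932 had an unadjusted p under 0.05. Between control regions 2583 became 1431 with the compared groups alone, 5337 with the covariate and 1532 to 2680 over left-out libraries. In knockout hindstomach against control forestomach 1764 became 889 with the compared groups alone, 4607 with the covariate and 793 to 4359 over left-out libraries. With the block, which joins different crosses by number alone there, it became 0 by limma, where 736 had an unadjusted p under 0.05. Rescaling moved the median over all genes to 0.18 in the knockout and -0.05 in the knock-in comparison, and quantile normalization to 0.14 and 0.08. With rescaling 72.3% of called genes were higher in the knockout (52.6% before) and 79.5% in the knock-in comparison (44.9% before, and 75.3% after quantile normalization), and 81.2% in knockout hindstomach against control forestomach (60.0% before). Same-numbered knockout and control hindstomach libraries deviated with correlations of 0.03, 0.06 and -0.26, against -0.24 to 0.28 for differently numbered ones. These correlations cannot show whether the numbers pair libraries. No paired analysis was possible for the knock-in comparison because its groups share a single number. Gata3 has no value under the filter on mean FPKM, which it does not pass. The Gata6 share in control forestomach was 79.4% when the sum held Gata4, Gata5 and Gata6 alone. Gata2, and all levels under about 1 FPKM, are limited by depth, which is known only relatively.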

Other observations

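Gata1, the family member best known from red blood cell precursors and mast cells, was not among the genes described above and did not pass the filter. It stood at 0.0493, 0, 0, 0.0283 and 0.125 FPKM in the libraries labelled knockout 1 to 5, against 0.609, 0.635 and 0.582 FPKM in hindstomach controls 2, 3 and 4, without overlap. The forestomach libraries held 0.0896, 0.0350 and 0.0799 FPKM in libraries labelled knock-in 1, 2 and 4, against 1.07, 0 and 0.251 FPKM in forestomach controls 2, 3 and 5. Summed red blood cell markers were 136 to 1393 FPKM in knockout libraries, against 300.1 to 407 FPKM in hindstomach controls. Summed mast cell markers were 36.6 to 53.0 FPKM in knockout libraries, against 46.0 to 54.7 FPKM in hindstomach controls. Most of that sum was Kit, at 41.4 ± 6.5 against 48.8 ± 4.8 FPKM, while Cpa3 stood at 1.11 ± 0.53 against 0.281 ± 0.173 FPKM. Of the 5 mast cell markers, 4 were under 1 FPKM in every hindstomach control and 3 in every knockout library. In libraries labelled knock-in the red blood cell sum was 26.5 to 131 FPKM, against 220 to 1109 FPKM in forestomach controls, and the mast cell sum 10.6 to 25.7 FPKM, against 24.0 to 69.7 FPKM. Their part in the Gata1 values was not tested. No test was run on Gata1.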
